A study of Mus musculus with 18 samples.

Results

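The transcripts described here are 10 regulators of inflammatory signalling, chosen by gene symbol from the 36172 genes deposited. They comprise 7 genes for dual-specificity phosphatases (Dusp1, Dusp2, Dusp4, Dusp5, Dusp6, Dusp10 and Dusp16) and the 3 genes of the Zfp36 family (Zfp36, Zfp36l1 and Zfp36l2). All 10 were among the 14803 genes that passed the filter on low counts and were tested. RNA came from the brains of Cx3cr1-cre/ERT2+; NuTRAP+ mice of about 3 months of age, in which tamoxifen switches on a GFP-tagged ribosomal protein wherever the Cx3cr1 promoter drives the Cre recombinase. All groups carried both transgenes and received tamoxifen, and 3 to 4 weeks later an intraperitoneal injection of lipopolysaccharide (LPS, 5 mg/kg, 5 mice) or phosphate-buffered saline (PBS, 4 mice), with tissue taken after 24 h. From each mouse a part of the lysate of a brain hemisphere was sequenced as input, which holds RNA of all cells, and the ribosomes captured with an antibody to GFP were sequenced as the positive fraction. The Cx3cr1 promoter is active in microglia and also in macrophages at the brain borders and in monocytes, so the tag is not limited to microglia. The wait of 3 to 4 weeks was meant to let labelled circulating monocytes, which are short-lived, be replaced.

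Signals from Toll-like receptors pass through mitogen-activated protein kinases (MAPKs) of the ERK, JNK and p38 families, which are active only while a threonine and a tyrosine in their activation loop carry phosphate. Dual-specificity phosphatases remove both phosphates and so switch the kinases off, and many of their genes are themselves induced by the kinases they act on. Zfp36, also called tristetraprolin, and its relatives bind AU-rich elements in the 3′ ends of mRNAs, among them cytokine mRNAs such as Tnf, and recruit the CCR4-NOT complex, which shortens the poly(A) tail and starts decay.

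The input library of LPS animal 271 held only 1252 counts and was left out, which left 4 input libraries of each treatment and 4 PBS and 5 LPS libraries of the positive fraction, with 22968939 to 35123345 counts each. Values below are normalised counts, that is, deposited counts divided by a size factor for the library, and a gene was called where the p-value of edgeR's quasi-likelihood test, adjusted by Benjamini-Hochberg over all 14803 genes, was under 0.05 and the log2 fold change was over 0.32 in size, the study's own limit. The 10 microglia markers were all called higher in the positive fraction than in input, with a median log2 difference of 4.22 in PBS animals and 4.03 in LPS animals. Of all genes tested, 21.0% and 27.6% were called higher in these comparisons. RNA of other cells was still present in the positive fraction, where the summed neuron markers lay between 198800 and 228500 normalised counts in PBS animals, against 193800 to 204100 in input. Oligodendrocyte markers were depleted, at 24400 to 32140 against 103700 to 163300, so carry-over of RNA was not uniform across cell types. A positive-to-input ratio near 1 is also what neuron markers gave. In PBS animals astrocyte markers summed to 105700 to 157000 in the positive fraction, against 104200 to 113800 in input. Endothelial markers were higher in the positive fraction, at 6563 to 10160 against 2427 to 3752. A ratio above 1 was thus also seen for markers of other cells. Border macrophage markers, which Cx3cr1-expressing cells also hold, were called lower with LPS in the positive fraction for 4 of 5 genes, beside 14.9% of all genes. Their sums were 3348 to 7176 in PBS and 2425 to 3383 in LPS animals, and their part in the results below was not tested. In such bulk libraries, fewer cells of a type and less RNA per cell cannot be told apart.

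With LPS, 6 of the 10 transcripts rose in the positive fraction (Dusp1, Dusp2, Dusp16, Zfp36, Zfp36l1 and Zfp36l2), Dusp4 fell, and Dusp5, Dusp6 and Dusp10 did not pass the test. Over all genes tested, 19.0% were called higher and 14.9% lower in this comparison. The median log2 fold change was 0.39 over the 10 transcripts and 0.01 over all genes tested. In input, 3 transcripts rose, all of the Zfp36 family, and Dusp4 fell, beside 7.16% of all genes called higher and 5.26% called lower. The median over the 10 transcripts in input was 0.02.

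**Figure D1:**
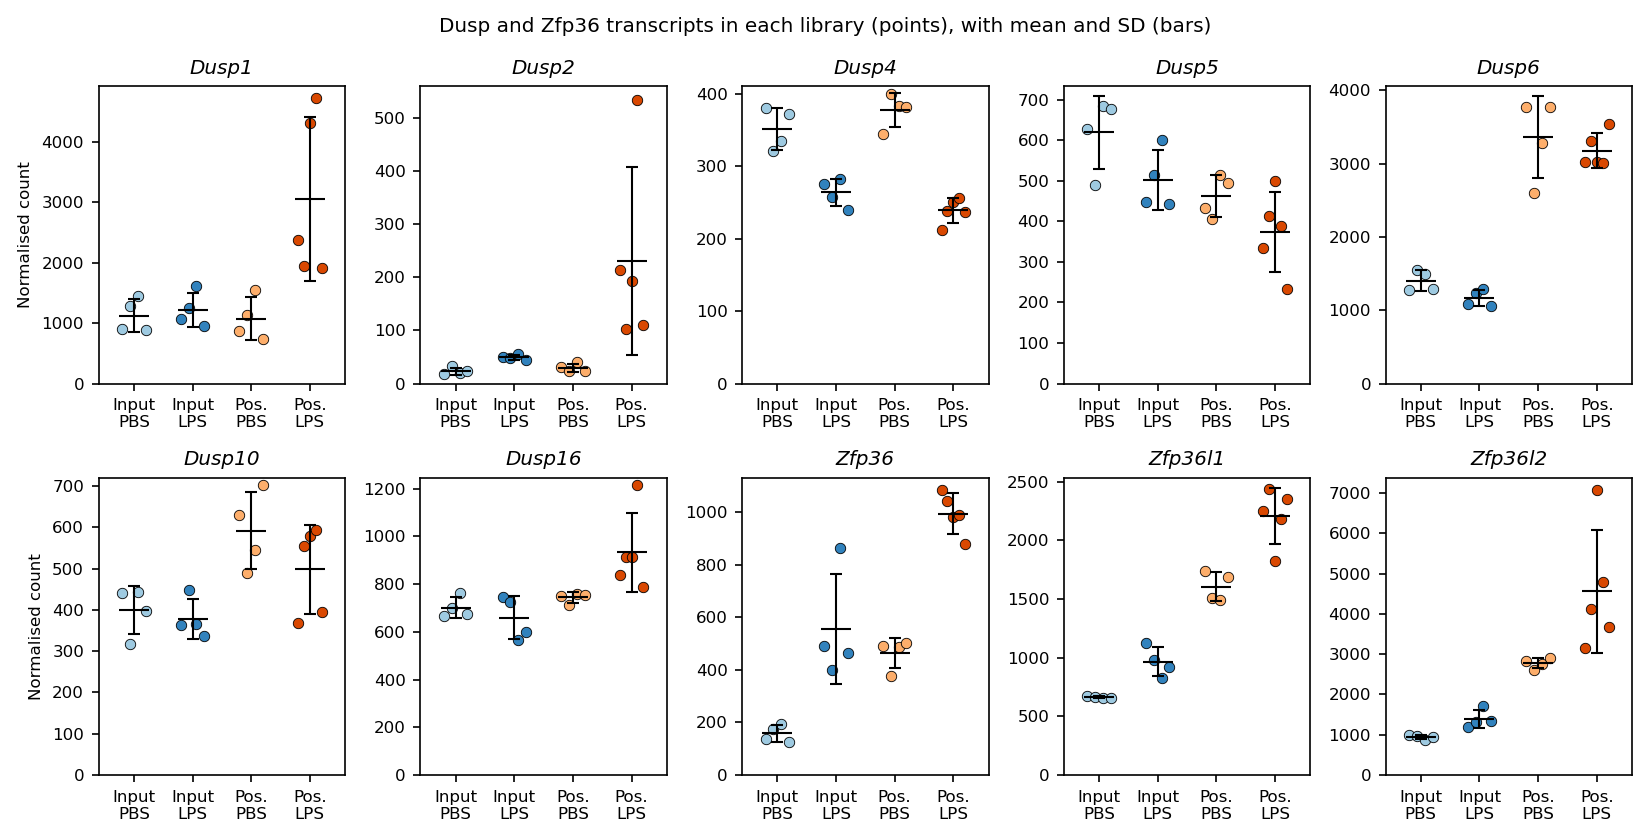
Normalised counts (y axis, linear from 0, a separate scale for each gene) of the 10 transcripts in each of the 17 libraries. Points are libraries, horizontal lines the group mean and bars the SD. Dusp1 and Dusp2 stood out in the Positive LPS libraries, whereas Zfp36 was higher with LPS in both fractions and Dusp4 lower in both.

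Dusp1, or MAPK phosphatase 1, is an inducible nuclear phosphatase that acts mainly on p38 and JNK. In the positive fraction its level was 739, 864, 1131 and 1545 normalised counts in the 4 PBS libraries and 1919, 1950, 2367, 4302 and 4722 in the 5 LPS libraries. The groups did not overlap, but the LPS libraries split into 3 between 1919 and 2367 and a pair at 4302 and 4722, which came from animals 270 and 271. This was a 2.86-fold difference (log2 1.51, SE 0.29, adjusted p = 0.000425). Without the library of animal 271 it was 1.31, and without that of animal 270 it was 1.36, and the call held in each of the 17 refits that left out a library.

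In input the same gene gave 881, 900, 1275 and 1442 normalised counts with PBS and 952, 1061, 1246 and 1608 with LPS. These ranges overlapped, and the test was not passed (log2 0.11, SE 0.29, adjusted p = 0.841). In PBS animals Dusp1 was also about as high in the positive fraction as in input, with ratios within the same animal of 0.839 to 1.07. In the 4 LPS animals with both libraries the ratio was 1.56, 2.01, 2.23 and 2.67, above all 4 PBS ratios.

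The interaction of fraction and treatment, that is, how far the effect of LPS in the positive fraction exceeded that in input, was 1.40 on the log2 scale for Dusp1 (SE 0.41, adjusted p = 0.0452), the only call among the 10 transcripts, beside 5.46% of all genes called higher and 1.42% called lower in this test. This adjusted p lay close to the threshold and moved between 0.0251 and 0.105 when a library was left out, with the call kept in 7 of 17 refits. It was lost without the input library of animal 266, 267, 272, 273 or 507 and without the positive library of animal 268, 270, 271, 272 or 506. Fractions of the same animal are paired, and a fit with animal as a replicate block, which draws on the 8 animals with both libraries and takes nothing from the positive library of animal 271, gave 1.16 (SE 0.14, adjusted p = 0.000161). Without animals 506 and 507 it was 1.39 and the adjusted p 0.135. Sex was unevenly spread, with 2 males of 4 PBS animals and 1 male of 5 LPS animals, and in PBS libraries Dusp1 was higher in both males than in both females in each fraction. The summed immediate early genes followed the same split among the positive libraries of PBS animals, at 30070 and 30140 in males and 20620 and 21810 in females. With sex as a covariate the LPS effect on Dusp1 in the positive fraction was 1.63 (adjusted p = 0.00044).

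The Dusp1 gene lies on chromosome 17 (mm10, 26505591 to 26508472, minus strand) with 4 exons. The 250 bases before its transcription start are shown because Dusp1 is the transcript whose interaction of fraction and treatment was called above. Capitals mark matches to TGACGT, the core of the cAMP response element bound by CREB and ATF factors, on either strand. The sequence is from RefSeq, build GRCm38.p6, chr17:26508473-26508722, minus strand, written 5′ to 3′.

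Dusp1 promoter: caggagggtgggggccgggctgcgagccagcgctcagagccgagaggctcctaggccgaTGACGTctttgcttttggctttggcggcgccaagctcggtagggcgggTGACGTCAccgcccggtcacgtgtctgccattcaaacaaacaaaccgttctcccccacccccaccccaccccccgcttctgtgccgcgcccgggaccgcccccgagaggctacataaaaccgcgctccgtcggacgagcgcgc

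The window held TGACGT at 191 and at 143 bases before the start, the latter as part of a palindrome that also matches from the other strand. Of the 32851 promoters of this length in the RefSeq table, 6.47% held TGACGT at least once on either strand.

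Dusp2, or PAC1, is a nuclear phosphatase best known from activated immune cells, where it acts on ERK and p38. Per kilobase it was the least abundant of the 10 transcripts in input, and in the positive fraction its fold change was the largest of the 10. With PBS the positive libraries held 23.8, 24.2, 30.5 and 40.5 normalised counts, and with LPS they held 102, 111, 193, 213 and 535. The LPS libraries were 7.76-fold higher (log2 2.96, SE 0.42, adjusted p = 2.56e-05) and did not overlap with PBS. The highest library was again that of animal 271, without which the log2 fold change was 2.38 and still called.

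In input Dusp2 was at 17.2, 20.4, 22.9 and 32.9 normalised counts with PBS and at 44.7, 48.1, 49.8 and 55.8 with LPS. The groups did not overlap, yet the difference was not called (log2 1.09, SE 0.44, adjusted p = 0.111). It was called where only the input libraries were fitted (adjusted p = 0.00965) and where the positive library of animal 271 was left out of the fit (adjusted p = 0.0148). The interaction for Dusp2 was 1.87 (SE 0.61, adjusted p = 0.0747), not called. The paired fit with the replicate block gave 1.23 (adjusted p = 0.0401) and DESeq2 gave 1.87 (adjusted p = 0.0194), both called, as it was without the positive library of animal 267 (adjusted p = 0.0325) or 507 (adjusted p = 0.0406). Of 8 neutrophil markers, 6 were tested and 5 of them were called higher with LPS in each fraction, beside 19.0% of all genes in the positive fraction and 7.16% in input. A marker could pass the filter through 1 group alone, so this count is no evidence about the list. The summed count of all 8 in the positive fraction lay between 140 and 327 with PBS and between 432 and 1156 with LPS. Among the Positive LPS libraries that sum was 1156, 910, 798, 756 and 432 in animals 266, 271, 267, 507 and 270. Dusp2 in the same order was at 213, 535, 102, 111 and 193 normalised counts. The part of these cells in the Dusp2 result was not tested.

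The Dusp2 gene lies on chromosome 2 (127336159 to 127338377, plus strand) with 4 exons. Its promoter window (RefSeq, GRCm38.p6, chr2:127335909-127336158, plus strand) is shown because Dusp2 had the largest fold change of the 10 transcripts in the positive fraction.

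Dusp2 promoter: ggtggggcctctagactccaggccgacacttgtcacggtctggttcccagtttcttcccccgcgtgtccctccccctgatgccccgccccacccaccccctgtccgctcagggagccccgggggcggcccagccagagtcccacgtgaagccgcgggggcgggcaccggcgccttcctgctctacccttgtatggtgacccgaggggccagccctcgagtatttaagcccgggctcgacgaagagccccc

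This window held no match to TGACGT, to TATAAA, to TGANTCA (the AP-1 site), to the NF-kB consensus or to the CArG box bound by serum response factor, so it has no capitals. On either strand TATAAA was in 12.4% of all promoters, TGANTCA in 6.75% and the NF-kB consensus in 3.9%. It held GGGCGG, the core of the Sp1 site, at 167, 129 and 94 bases before the start, as 32.7% of all promoters held at least once.

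Dusp4, Dusp5 and Dusp6 act mainly on ERK, the first and second in the nucleus and Dusp6 in the cytoplasm. Dusp4 was the transcript that fell. In the positive fraction it went from 344, 382, 383 and 400 normalised counts with PBS to 212, 237, 238, 251 and 256 with LPS, and in input from 320, 334, 372 and 380 to 240, 257, 276 and 282. In both fractions every LPS library lay below every PBS library. On the log2 scale Dusp4 changed by -0.66 among positive libraries (SE 0.10, adjusted p = 4.19e-05) and by -0.42 among input libraries (SE 0.10, adjusted p = 0.0108). The interaction was -0.24 (SE 0.14, adjusted p = 0.386). Dusp4 was not called different between the fractions in either treatment. Its call in input was lost without animals 506 and 507 (log2 -0.34, adjusted p = 0.149). Of 9 neuron markers, 3 were called lower with LPS in the positive fraction and none higher, and their sum there was 152100 to 206200 against 198800 to 228500 with PBS. In input none of the 9 was called, though their sum was 178200 to 190700 with LPS against 193800 to 204100 with PBS. Oligodendrocyte markers were called lower in input for 7 of 8 genes, with sums of 66600 to 95240 against 103700 to 163300, and in the positive fraction for 2 of 8, at 21280 to 30810 against 24400 to 32140. The part of neurons and oligodendrocytes in the Dusp4 result was not tested.

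Dusp6 was the most abundant of the 10 transcripts per kilobase in the positive fraction of PBS animals. It was at 2592, 3286, 3771 and 3775 normalised counts there and at 3013, 3018, 3019, 3304 and 3536 with LPS. The ranges overlapped and no change was called (log2 -0.08, SE 0.10, adjusted p = 0.577). In input it was at 1282, 1284, 1494 and 1554 with PBS and at 1055, 1084, 1230 and 1289 with LPS, which was not called either (log2 -0.27, SE 0.11, adjusted p = 0.121). Dusp6 was higher in the positive fraction than in input by 2.39-fold in PBS animals (adjusted p = 4.33e-08) and by 2.73-fold in LPS animals (adjusted p = 2.67e-09). Dusp6 therefore differed by fraction, and no effect of LPS on it was detected.

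Dusp5 leaned the other way between fractions. It was at 491, 628, 677 and 686 normalised counts in input with PBS and at 444, 448, 514 and 602 with LPS. The positive libraries held 406, 434, 496 and 515 with PBS and 234, 334, 388, 415 and 500 with LPS. Treatments overlapped within each fraction. The log2 ratio of positive to input was -0.42 in LPS animals (SE 0.17, adjusted p = 0.0399), called, and -0.43 in PBS animals (SE 0.18, adjusted p = 0.0612), not called. In the paired fit with the replicate block both were called, with adjusted p-values of 0.00147 in LPS animals and 0.00382 in PBS animals, and the ratio within an animal was below 1 in all 8, from 0.528 to 0.831. The LPS effects of -0.30 in the positive fraction (adjusted p = 0.167) and -0.31 in input (adjusted p = 0.279) did not pass the test. The call in LPS animals was lost with only the LPS libraries fitted (adjusted p = 0.0903), without animals 506 and 507 (adjusted p = 0.0953), and without the positive library of animal 266, 271 or 507 or the input library of animal 267 or 270. The LPS effect in the positive fraction was called without the library of animal 270 (-0.43, adjusted p = 0.0474).

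Dusp10 and Dusp16 act on p38 and JNK. Dusp10 had a mean of 591 ± 93.6 (SD, n = 4) in Positive PBS and 498 ± 107 (n = 5) in Positive LPS, against 399 ± 58.4 and 378 ± 48.4 in the 4 input libraries of each treatment. It was called higher in the positive fraction than in input in PBS animals (1.48-fold, adjusted p = 0.0103) and in LPS animals (1.32-fold, adjusted p = 0.0374). The second of these calls was lost in the paired fit with the replicate block. There the log2 ratio of 0.31 (adjusted p = 0.0232) lay under the limit on fold change. It was also lost without the input library of animal 266, 270 or 507 or the positive library of animal 267, 270 or 271. Other losses came with only the LPS libraries fitted (adjusted p = 0.0549) and with the input library of animal 271 included (adjusted p = 0.101). The log2 values as deposited did not give the call either (adjusted p = 0.12). Without animals 506 and 507 neither call was made (adjusted p = 0.0794 and 0.0684). The LPS effect on Dusp10 was -0.25 in the positive fraction (SE 0.16, adjusted p = 0.222) and -0.08 in input (SE 0.17, adjusted p = 0.792).

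Dusp16 rose least of the transcripts that were called. Its positive libraries held 711, 752, 756 and 758 normalised counts with PBS and 787, 837, 912, 912 and 1214 with LPS. The highest value belonged to animal 271 again. The groups did not overlap, but the change of 0.33 (log2, SE 0.12, adjusted p = 0.0336) stood just above the limit on fold change. It was called in 12 of 17 refits that left out a library. The call was lost without animal 271 (0.22, adjusted p = 0.0912), without any of the 4 Positive PBS libraries, and with only the positive libraries fitted. It was also lost in a voom fit that allowed for the correlation between libraries of the same animal. There the change of 0.31 (adjusted p = 0.0486) lay under the limit on fold change. In input Dusp16 was at 666, 676, 701 and 762 with PBS and at 565, 599, 726 and 744 with LPS, with overlapping ranges and no call (log2 -0.09, SE 0.12, adjusted p = 0.679).

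**Figure D2:**
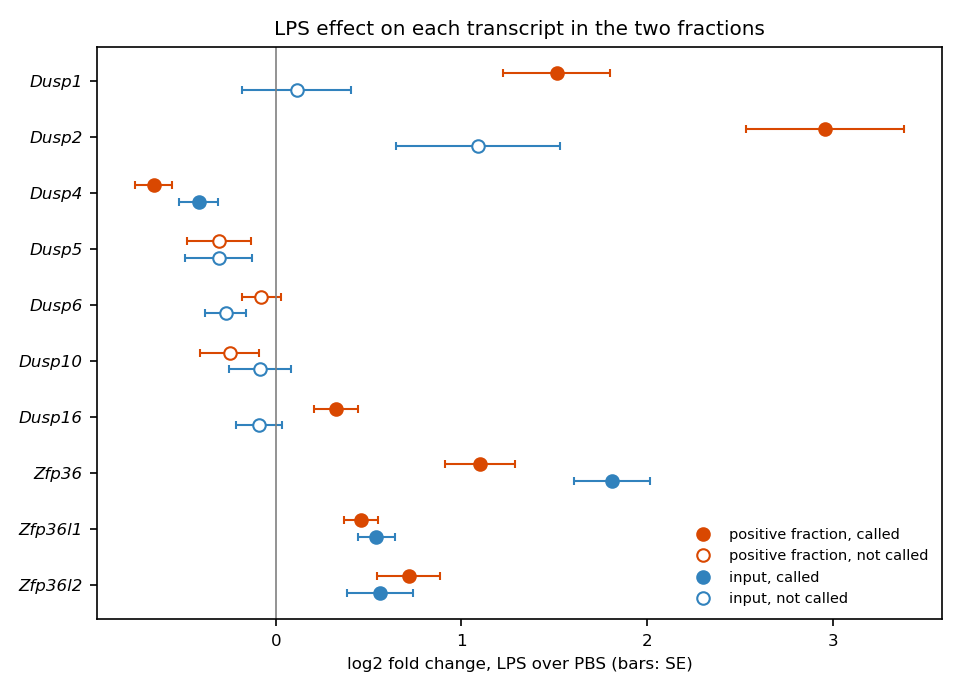
Log2 fold change of LPS over PBS (x axis) for each of the 10 transcripts, in the positive fraction and in input. Points are edgeR's fitted values, bars the SE, and filled points were called. Dusp1 lies at 1.51 in the positive fraction and at 0.11 in input, while Zfp36 lies at 1.10 and 1.81.

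All 3 Zfp36 family transcripts were higher in the positive fraction than in input in both treatments, and all 3 rose with LPS in both fractions. Zfp36 changed most. In input it went from 125, 136, 176 and 195 normalised counts with PBS to 399, 463, 491 and 862 with LPS, the last from animal 270. This was 3.50-fold higher (log2 1.81, SE 0.20, adjusted p = 7.03e-06). In the positive fraction it went from 377, 488, 489 and 500 to 878, 980, 988, 1040 and 1083, which was 2.14-fold higher (log2 1.10, SE 0.19, adjusted p = 0.000155). In neither fraction did LPS and PBS libraries overlap.

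The 5 Positive LPS libraries lay close together for Zfp36, with an SD of 7.77% of the mean, whereas for Dusp1 it was 44.3% and for Dusp2 76.6%. Within an animal the ratio of positive to input was 2.13 to 4.02 in PBS animals and 1.14, 1.89, 2.21 and 2.61 in LPS animals. These ranges overlapped, and the interaction, -0.71 (SE 0.27, adjusted p = 0.14), did not pass the test. It was -0.42 without the input library of animal 270, whose ratio was the lowest. The 7 endothelial markers, all tested, had a median log2 ratio of positive to input of 1.46 in PBS animals and 0.73 in LPS animals, and in input their sum was 2427 to 3752 with PBS and 3584 to 5770 with LPS. Their part in the Zfp36 result was not tested.

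The Zfp36 gene lies on chromosome 7 (28376784 to 28379228, minus strand) with 2 exons. Its promoter window (RefSeq, GRCm38.p6, chr7:28379229-28379478, minus strand) is shown because Zfp36 had the largest rise of the 10 transcripts in input, with the CArG box in capitals.

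Zfp36 promoter: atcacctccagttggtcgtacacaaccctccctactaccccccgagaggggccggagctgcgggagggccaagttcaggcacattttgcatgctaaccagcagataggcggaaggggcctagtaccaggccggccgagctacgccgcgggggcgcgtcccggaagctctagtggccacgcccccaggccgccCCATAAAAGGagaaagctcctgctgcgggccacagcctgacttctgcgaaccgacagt

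The CArG box began 58 bases before the start, and 1.47% of all promoters held this motif. Among the 8 of 10 genes with a promoter in the table, only Dusp5 also held it, with matches beginning 82 and 72 bases before the start. No promoter was given for Dusp4 or Zfp36l2.

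Zfp36l1 had the tightest values of the 10 transcripts in Input PBS, at 656, 656, 669 and 674 normalised counts with PBS. With LPS it was at 831, 921, 983 and 1126 there, higher by 0.54 on the log2 scale (SE 0.10, adjusted p = 0.00103). In the positive fraction it went from 1490, 1507, 1689 and 1741 to 1824, 2184, 2250, 2357 and 2437, or 0.46 on the log2 scale (SE 0.09, adjusted p = 0.000745). No LPS library lay below a PBS library in either fraction, and the call held in all 17 refits for each.

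Zfp36l2 was the most abundant Zfp36 family transcript per kilobase in the positive fraction. It went from 2602, 2761, 2841 and 2903 normalised counts with PBS to 3144, 3673, 4124, 4793 and 7076 with LPS, the last from animal 270. Zfp36l2 rose by 0.72 (log2, SE 0.17, adjusted p = 0.00253), and by 0.51 without that library, which was still called. In input it went from 875, 956, 957 and 988 to 1183, 1326, 1341 and 1718, the highest being animal 270 again. The input change of 0.56 (log2, SE 0.18, adjusted p = 0.0442) was near the threshold, held in 6 of 17 refits that left out a library, with the highest adjusted p (0.155) without the input library of animal 270. The call was lost whenever a PBS library of either fraction was left out, without the input library of animal 267, 270 or 507, and also without animals 506 and 507 (adjusted p = 0.14) and with sex as a covariate (adjusted p = 0.0632). For Zfp36l1 and Zfp36l2 the interaction was -0.08 (SE 0.14) and 0.16 (SE 0.24), neither called.

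**Figure D3:**
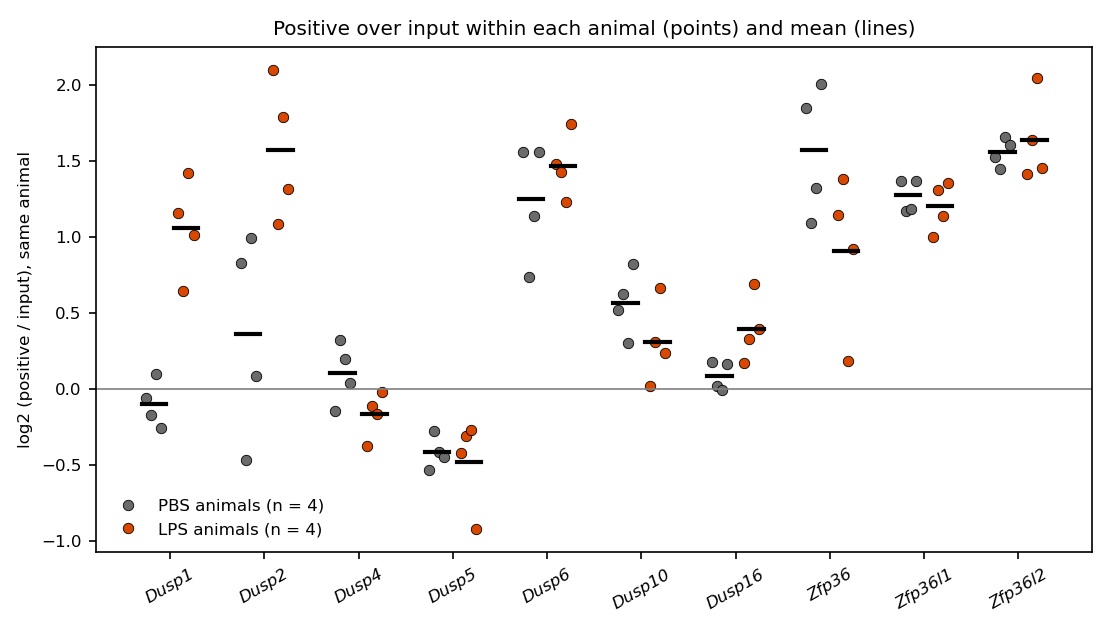
Log2 ratio of the positive to the input library of the same animal (y axis) for the 10 transcripts in 4 PBS and 4 LPS animals. Points are animals and short lines the mean. For Dusp1 the PBS animals lie near 0 and the LPS animals between 0.65 and 1.42. For Dusp6, Dusp10, Zfp36, Zfp36l1 and Zfp36l2 all animals of both treatments lie above 0.

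Placement of the transcripts by fraction thus differed. In PBS animals 5 of 10 were called higher in the positive fraction than in input (Dusp6, Dusp10 and the 3 Zfp36 family members) and none lower, beside 21.0% of all genes called higher and 18.8% lower. The log2 ratio was 1.55 for Zfp36, 1.28 for Zfp36l1, 1.56 for Zfp36l2, 1.26 for Dusp6 and 0.56 for Dusp10. Dusp1, Dusp2, Dusp4 and Dusp16 lay between -0.07 and 0.35, and Dusp5 was at -0.43. In LPS animals 8 were called higher and Dusp5 lower, beside 27.6% and 25.8% of all genes. The transcripts called higher in LPS animals alone were Dusp1, Dusp2 and Dusp16, with log2 ratios of 1.33, 2.22 and 0.50, and of these the difference between treatments was called for Dusp1.

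With a stricter limit of a 2-fold change, the transcripts called for LPS in the positive fraction were Dusp1, Dusp2 and Zfp36, all higher, beside 5.23% of all genes called higher and 2.48% lower. In input Zfp36 alone was called at this limit, beside 3.13% and 0.925% of all genes. For positive over input in PBS animals 4 were called higher (Dusp6 and the 3 Zfp36 family members), beside 7.93% higher and 4.67% lower, and in LPS animals 5 (Dusp1, Dusp2, Dusp6, Zfp36l1 and Zfp36l2), beside 10.2% and 5.21%. The interaction was called for Dusp1, beside 1.35% higher and 0.574% lower.

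Per kilobase of exon within the gene's span in the file, the order in Positive PBS libraries was Dusp6 (1200 ± 200 normalised counts per kilobase, SD, n = 4), Zfp36l2 (787 ± 36.9), Dusp1 (551 ± 184), Zfp36l1 (539 ± 42.6), Dusp5 (401 ± 44.6), Zfp36 (263 ± 32.9), Dusp10 (218 ± 34.5), Dusp4 (155 ± 9.83), Dusp16 (146 ± 4.32) and Dusp2 (18.4 ± 4.82). Libraries of the neighbours Zfp36l2 and Dusp1, Dusp1 and Zfp36l1, Zfp36 and Dusp10, and Dusp4 and Dusp16 overlapped, and the places of Dusp5 and Zfp36 depend on their spans in the file, which cover 1155 of 2473 and 1765 of 2790 exon bases of their transcripts. Over the whole transcript the means would be 187 for Dusp5 and 166 for Zfp36, both below Dusp10 at 212. In Positive LPS libraries Dusp1 came first at 1572 ± 697 (n = 5), followed by Zfp36l2 at 1292 ± 433 and Dusp6 at 1137 ± 84.3, all with overlapping ranges. Zfp36 was at 563 ± 43.8, and Dusp2 at 143 ± 109 had a higher mean than Dusp4 at 98.4 ± 7.03, though their libraries overlapped. In Input PBS libraries the first 3 were Dusp1 (579 ± 144, n = 4), Dusp5 (537 ± 77.9) and Dusp6 (502 ± 50.5), whose ranges overlapped, and Zfp36 (89.5 ± 18.9) was second to last. The place of Dusp5 again depends on its span. Over the whole transcript its mean there would be 251, below Dusp6 at 502 and Zfp36l2 at 267.

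AU-rich elements, the sequences that Zfp36 proteins bind, were counted in the 3′ untranslated regions (UTRs) of the 10 transcripts themselves, in GENCODE M21 annotation of the same build. The heptamer TATTTAT occurred 3 times in each of Dusp1, Zfp36, Zfp36l1 and Zfp36l2 and in a single copy in Dusp2, and was not found in Dusp4, Dusp5, Dusp6, Dusp10 or Dusp16. The longer form TTATTTATT, which contains the heptamer, occurred in a pair of copies in Dusp1 and in single copies in Zfp36, Zfp36l1 and Zfp36l2. The 5 transcripts with a heptamer were all called higher with LPS in the positive fraction, as was Dusp16 without it, and Dusp4, without it, was called lower. Of all genes tested, 19.0% were called higher and 14.9% lower. These are only 10 transcripts, whose UTRs run from 581 to 2411 bases, and a link between the element and the LPS effect was not tested. The share of all genes with the heptamer anywhere in the UTR was not counted. Within the first 500 bases after the stop codon, where windows can be compared, only Dusp1 of the 10 held either element, while 11.5% of 9394 tested genes with a UTR of that length held the heptamer and 2.61% the longer form.

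The longer elements are shown with 10 bases on each side, 5′ to 3′ in DNA letters on the minus strand, with TTATTTATT in capitals, because they are the sites in these decay regulators and in Dusp1 that match the motif of the Zfp36 proteins. Their positions are chr17:26506159-26506187 and chr17:26505870-26505898 for Dusp1, chr7:28376951-28376979 for Zfp36, chr12:80108167-80108195 for Zfp36l1 and chr17:84184914-84184942 for Zfp36l2, all after the stop codon.
Dusp1, 103 bases after the stop codon: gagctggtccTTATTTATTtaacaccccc
Dusp1, 392 bases after the stop codon: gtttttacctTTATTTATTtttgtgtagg
Zfp36, 589 bases after the stop codon: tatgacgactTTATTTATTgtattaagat
Zfp36l1, 1404 bases after the stop codon: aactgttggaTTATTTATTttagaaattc
Zfp36l2, 821 bases after the stop codon: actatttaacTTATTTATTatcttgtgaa

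Of 15 other dual-specificity phosphatase genes, 13 were tested, and with LPS 1 was called higher and 3 lower among positive libraries. Of all genes tested, 19.0% were called higher and 14.9% lower there. The median log2 fold change of the 13 was -0.26 against 0.01 for all genes. Dusp3, a small phosphatase that acts on ERK and JNK, fell by 0.59 (log2, SE 0.07, adjusted p = 5.67e-06) and Dusp7, a cytoplasmic ERK phosphatase, by 0.55 (SE 0.08, adjusted p = 2.22e-05), while Dusp11, which acts on RNA rather than on MAPKs, rose by 0.56 (SE 0.20, adjusted p = 0.0354). The Dusp11 call held in 12 of 17 refits that left out a library and was lost without the positive library of animal 266 (0.36, adjusted p = 0.106), 272, 273, 506 or 507. Of 33 genes of the MAPK cascade, all tested, 5 were called higher and 3 lower (median 0.07), beside the same shares of all genes. In input these shares were 7.16% and 5.26%. Map3k8, the kinase Tpl2 upstream of ERK, rose by 2.77 on the log2 scale (SE 0.27, adjusted p = 3.51e-07), from 77.5 ± 35.6 normalised counts (SD, n = 4) to 531 ± 173 (n = 5). Mapkapk2, the p38 substrate kinase that phosphorylates Zfp36, rose by 1.73 (SE 0.11, adjusted p = 1.36e-09). Mapk11 and Mapk10, a p38 and a JNK kinase, changed by -0.54 (adjusted p = 0.0326) and -0.49 (adjusted p = 6.27e-05). The Mapk11 call held in 12 of 17 such refits, with values from -0.73 to -0.39, and was lost without the positive library of animal 267, 268, 270, 271 or 272. In input 4 of the 33 were called higher and none lower, with Map3k8 at 1.19 (adjusted p = 0.00664) and Mapkapk2 at 0.37 (adjusted p = 0.027), the latter in 10 of 17 refits and not without the input library of animal 266, 267, 268, 270, 272, 273 or 506. Of 7 Sprouty and Spred inhibitors of ERK signalling, 6 were in the file and tested, and 1, Spred3, was called, at -0.59 among positive libraries (SE 0.10, adjusted p = 0.000195) and at -0.39 in input (adjusted p = 0.0248). The Spred3 call in input held in 12 of 17 refits and was lost without the input library of animal 266, 267, 268, 270 or 506.

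Zfp36 proteins act through deadenylation and decapping, and of 23 genes of that machinery 21 were tested. With LPS 3 were called higher and none lower among positive libraries (median 0.22), and 1 higher and none lower in input (median 0.10). The shares of all genes called higher were 19.0% and 7.16%, and those called lower 14.9% and 5.26%. Cnot6l, a deadenylase of the CCR4-NOT complex, rose by 0.75 (log2, SE 0.16, adjusted p = 0.000985) and Parn, a poly(A) ribonuclease, by 0.41 (SE 0.10, adjusted p = 0.00319). Among 12 other RNA-binding proteins that set mRNA stability, 11 were tested, of which 3 were called higher and none lower among positive libraries (median 0.16). Zc3h12a, the endonuclease Regnase-1 that cuts inflammatory mRNAs, rose by 3.96 among positive libraries (log2, SE 0.30, adjusted p = 1.57e-08) and by 1.79 in input (SE 0.31, adjusted p = 0.000521). Zc3h12c, a relative, rose by 1.14 (SE 0.23, adjusted p = 0.000624) in the positive fraction.

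Of 16 mRNAs listed as known targets of Zfp36 proteins, 12 passed the filter on low counts, and with LPS 11 were called higher and 1 lower among positive libraries and 10 higher and 1 lower among input libraries. Some, such as Csf3 and Cxcl1, were near 0 with PBS and passed the filter through the LPS groups alone, so these counts are no evidence about the list. Csf3, a granulocyte growth factor, was at 3.81 to 11.5 normalised counts in Positive PBS and 321 to 1001 in Positive LPS libraries. Cxcl1, a neutrophil chemokine, was at 0 to 9.14 and 128 to 741. Vegfa, the vascular growth factor, was the target that fell, by 1.10 (log2, SE 0.15, adjusted p = 1.79e-05) among positive libraries and by 1.24 (SE 0.16, adjusted p = 3.45e-05) among input libraries.

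**Figure D4:**
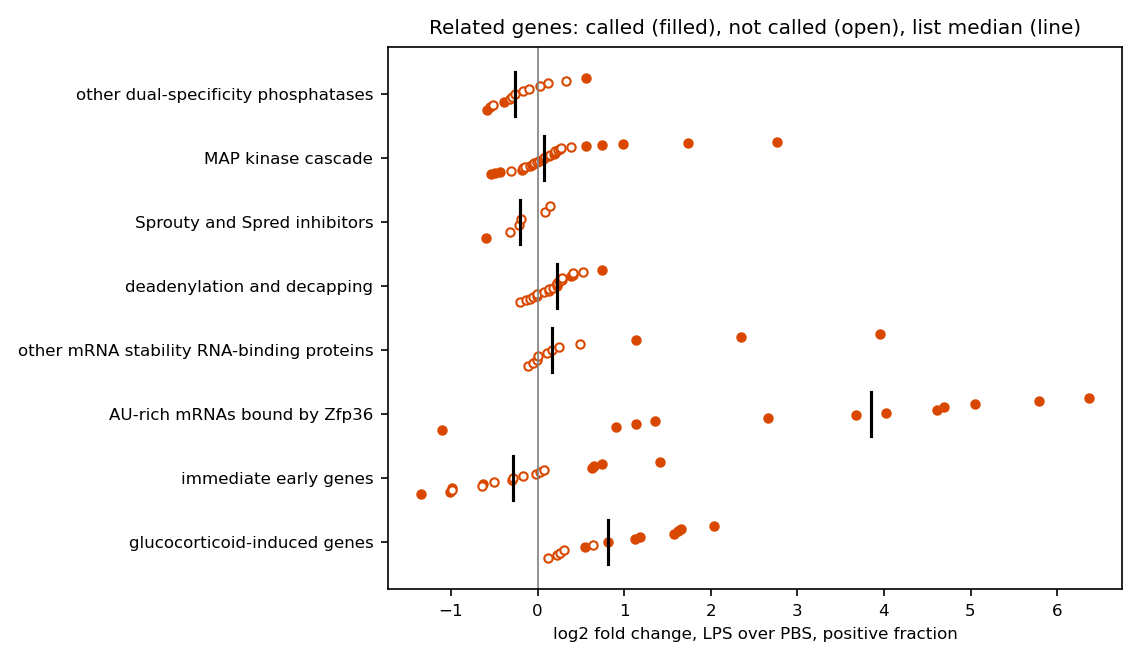
Log2 fold change of LPS over PBS in the positive fraction (x axis) for every tested gene of 8 lists of related genes (rows). Filled points were called, open points were not, and black lines mark the list median. The tested Zfp36 targets lie to the right apart from Vegfa at -1.10. Some of them passed the filter through the LPS groups alone, so this shift is no evidence about the list. The other dual-specificity phosphatases lie mostly left of 0.

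Dusp1 and Zfp36 are also known as genes induced by serum, stress and glucocorticoids. Among positive libraries 4 of 17 immediate early genes were called higher and 4 lower with LPS (median -0.29), beside 19.0% and 14.9% of all genes. Ier2 rose by 1.42 (SE 0.20, adjusted p = 1.88e-05) and Klf4 by 0.74 (SE 0.20, adjusted p = 0.00737), whereas Arc and Fosb, both known from active neurons, changed by -1.34 (adjusted p = 0.00093) and -1.02 (adjusted p = 0.00871). The Fosb call was lost without the positive library of animal 272 (-0.70, adjusted p = 0.0598). In input, where Dusp1 was not called, Ier2 was not called either, at 0.16 (adjusted p = 0.655), and 2 of the 17 were called higher and 3 lower. Of 13 genes known to be induced by glucocorticoids, 8 were called higher and none lower in each fraction. Their median was 0.81 among positive and 0.51 among input libraries. The share of all tested genes called higher with LPS was 19.0% for positive and 7.16% for input libraries. The share called lower was 14.9% and 5.26%. Whether glucocorticoids or other signals raised the genes of this list was not tested. Mt2, a metallothionein, rose by 2.04 (SE 0.21, adjusted p = 7.28e-07) and Nfkbia, the NF-kB inhibitor, by 1.66 (SE 0.17, adjusted p = 6.44e-07) in the positive fraction.

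For each of the 10 transcripts the gene with the most similar profile was sought among 12608 genes, as the highest Pearson r of log2(normalised count + 1) over the 17 libraries. These values describe libraries that share fraction and treatment. They were Bccip for Dusp1 (r = 0.943), Gsr for Dusp2 (r = 0.977), Apba1 for Dusp4 (r = 0.955), Gdf10 for Dusp5 (r = 0.91), Fez2 for Dusp6 (r = 0.984), Ppp1r17 for Dusp10 (r = 0.942) and Eif4e for Dusp16 (r = 0.919). For the Zfp36 family they were Cebpd for Zfp36 (r = 0.973), Fyb for Zfp36l1 (r = 0.995) and Rela for Zfp36l2 (r = 0.983). Cebpd, a transcription factor gene of the acute phase response, had log2 fold changes with LPS of 1.32 (positive) and 1.80 (input).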

How the data were processed

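TRAP-RNAseq libraries (18, from 9 animals) were analysed. The authors trimmed reads, aligned them directionally to the mouse genome (mm10) in Strand NGS and deposited estimated counts per gene, of which 81.14% of the nonzero values were not whole within 0.001, so reads shared between paralogs may have been split. They were rounded, and the library with 1252 counts was left out. The authors also deposited log2 values, normalised with DESeq per the submitters' processing notes over all libraries, used only as an alternative. Size factors were medians of ratios over 15766 genes (0.766 to 1.32). The filter kept genes above 20 normalised counts throughout all libraries of at least 1 group, which were fitted with edgeR 4.0.16 (quasi-likelihood, R 4.3.3, 1 mean per group, 13 residual degrees of freedom). The fit was also run on simulated counts, drawn independently for each library with the same spread for all genes. That simulation held no paired fractions and no genes of wider spread, so it does not bear on those. The study's own methods used analysis of variance. Comparisons numbered 5. Reads carry no molecular identifiers, so depth covers counting error only.

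Animal numbers pair the fractions, since both libraries come from the same animal (correlation of deviations 0.162 to 0.519). Blocked fits used animal as a fixed term in edgeR or voom with duplicateCorrelation (limma 3.58.1, correlation 0.445). DESeq2 1.42.0, TMM scaling, other filters, sex, other library sets and leaving out each library were alternatives. The genes and lists were chosen with earlier results of these data known. Named list genes were the up to 2 most raised and 2 most lowered called genes per list in the positive fraction with mean normalised counts of 100 or more, plus the most similar gene of each transcript with the same minimum. Lists had no set test. Promoters and motifs came from RefSeq (GRCm38.p6) and UTRs from GENCODE, for 10 of 10 transcripts, using the principal coding transcript nearest to the gene's span in the file. Motifs were sought on both strands of promoters, and CCAAT was also searched (33.8% of promoters).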

Additional observations from a re-analysis of the deposited data

Results flagged for a closer look

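The LPS effect on Dusp1 differed between fractions by 1.40 on the log2 scale, being larger in the positive fraction, by the interaction term of edgeR's fit across all genes (adjusted p = 0.0452).

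In 3 of 40 sets of libraries, 1 library lay far from the others of its group by Dixon's criterion, which chance does in about 1 of 20 sets. These were Dusp2 in Positive LPS, where animal 271 had 535 normalised counts against 102 to 213 in the others, and the lowest Positive PBS library of animal 272 for Dusp16 (711 normalised counts, against 752 to 758) and for Zfp36 (377, against 488 to 500).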

How the results depend on the processing

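Of the 5 counts of called transcripts, that of the LPS effect in the positive fraction was 6 to 8 when a library was left out (7 with all), in input 3 to 5 (4), for positive over input in PBS animals 5 to 6 (5), in LPS animals 7 to 9 (9), and for the difference between fractions 0 to 2 (1). With a limit of a 2-fold change the called transcripts, all higher, were 3 for the LPS effect in the positive fraction (5.23% of all genes called higher), 1 in input (3.13%), 4 for positive over input in PBS animals (7.93%), 5 in LPS animals (10.2%) and 1 for the difference (1.35%). Without the animals numbered 506 and 507 the input count was 2 and the count for the difference 0, with 3 at an unadjusted p under 0.05 by edgeR. DESeq2 and the replicate block each gave 2 for the difference, adding Dusp2. The replicate block in edgeR also added Dusp5 to positive over input in PBS animals and removed Dusp10 in LPS animals. For the LPS effects, the voom fit with duplicateCorrelation removed Dusp16 in the positive fraction. The blocked fits changed no other call among the 10 transcripts. The cause of these changes was not tested.

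Directions turned only for values near 0 that were not called. Positive over input in PBS animals was -0.030 for Dusp4 and -0.041 for Dusp16 when the empty library was included, and -0.025 and -0.040 from the log2 values as deposited. The Dusp5 interaction was -0.053 with the replicate block and -0.015 from those log2 values, and ranged from -0.12 to 0.138 when a library was left out. In the same refits Dusp1 in input ranged from -0.049 to 0.255, Dusp1 positive over input in PBS animals from -0.301 to 0.071, and the Zfp36l2 interaction from -0.054 to 0.27. Depth limits Dusp2 most, with 17 to 33 normalised counts in Input PBS.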
